A study of Mus musculus with 6 samples.

Results

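The genes described here were 33 genes of homologous recombination and of the Fanconi anaemia pathway, taken by gene symbol from a table of 30315 genes. They were picked out by symbol from a list drawn up with earlier results of these data known, and all 33 symbols were listed. Messenger RNA was sequenced in primary renal tubular epithelial cells (TECs) of C57BL/6 mice, and 3 libraries carried a small interfering RNA against Sox9 (siSox9) and 3 a negative control (siNC). Each culture was transfected 12 h before hypoxia/reoxygenation (H/R), a model of ischemic injury in which cells spend 6 h without glucose at 1.0% O2 and then 18 h in complete medium with normal oxygen. The control libraries therefore went through H/R as well, so the comparison addresses what less Sox9, a transcription factor induced in injured tubules, does to RNA levels during recovery from H/R, with no uninjured group beside it. A single siRNA against Sox9 was used, and nothing in the labels says whether the 3 libraries of a group came from separate cultures or animals, so the p-values measure the spread between these libraries, which may be technical.

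Homologous recombination repairs a double-strand break by copying the sister chromatid, and it works mainly in S and G2 phase, when a sister is there to copy. The kinases Atm and Atr sense breaks and stalled forks, nucleases cut back the broken end, Brca1 and Brca2 with their partners prepare the cut strand for exchange, and that strand then invades the intact copy. The Fanconi proteins recognise crosslinks between the DNA strands, place a ubiquitin on the Fancd2 and Fanci pair and hand the lesion over to the same recombination machinery. In the kidney, TECs that re-enter the cell cycle after injury replicate their DNA and can activate these checkpoints.

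Sox9 itself was measured at 8.93, 8.61 and 9.07 FPKM (fragments per kilobase of exon, scaled to the size of the library) with siSox9 and at 25.7, 26.5 and 25.6 FPKM with siNC. The groups were far apart, and siSox9 left 34.2% of the siNC level (adjusted p = 7.03e-06, limma). Library sizes, inferred from the FPKM values and not given as counts, were between 23893197 and 25725743 reads. Of the control libraries, siNC replicate 1 stood apart: its reads differed from those of the other 2 by a mean chi-square over genes of 7.14 and 7.49, while the other 2 differed by 2.79, and without it 14 of the genes described here were called lower in place of 13. In the siSox9 group, replicate 3 differed from replicates 1 and 2 by 4.17 and 3.16, while those 2 differed by 1.94. Without siSox9 replicate 3, 10 of the genes were called lower. The epithelial markers Epcam, Cdh1 and Krt8 and the tubule factor Pax8 were present in all 6 libraries, while Slc34a1 and Slc5a2, which define proximal tubule, were at or near 0 (at most 0.029 FPKM). Of the other 3 proximal tubule markers listed, the endocytic receptor gene Lrp2 stood at 2.06 to 2.58 FPKM, and Cubn and Aqp1 were between 0.110 and 0.515 FPKM. Leukocyte markers were also present: the macrophage gene C1qa stood at 34.9 to 41.3 FPKM with siSox9 and at 39.5 to 46.4 FPKM with siNC, and 0 of 5 tested leukocyte markers passed the test.

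Promoters are described before the levels, because several recombination genes are textbook targets of the E2F factors that switch on S phase genes. The levels had already been fitted when the promoters were searched. RefSeq promoter windows (GRCm38.p6, 250 bases before to 50 after the start) were at hand for 25 of the 33 genes. The E2F letters searched, on both strands, were TTTCCCGC, TTTGGCGC, TTTCGCGC and TTTGCCGC. They were found in 5 of 25 windows (20%), against 704 of 27025 genes in the whole promoter table (2.605%). An S phase list had them in 6 of 16 windows (37.5%) and a mismatch repair list in 2 of 5 (40%). Other recombination and Fanconi genes had them in 6 of 51 windows (11.8%). Lists for base excision repair, end joining, and G2 and mitosis had them in 1 of 16, 1 of 7 and 1 of 17 windows. Nucleotide excision repair had them in 0 of 14 windows and translesion synthesis in 0 of 4. The following 68-base stretches, on the strand of the gene and 5′ to 3′, show the matches in the 25 windows in capitals with 30 bases on each side. Bard1 lies at chr1:71103144-71103211 (minus strand), Fancg at chr4:43010316-43010383 (minus), Chek2 at chr5:110839801-110839868 (plus) and Brca2 at chr5:150522423-150522490 (plus). Rad51c has 2 annotated starts, with a match 11 bases inside the transcript at chr11:87404458-87404525 and one that begins 5 bases before the other start at chr11:87404922-87404989 (both minus).
Bard1: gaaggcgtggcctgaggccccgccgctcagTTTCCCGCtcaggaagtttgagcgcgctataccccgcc
Fancg: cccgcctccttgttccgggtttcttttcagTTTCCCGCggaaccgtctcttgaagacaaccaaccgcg
Chek2: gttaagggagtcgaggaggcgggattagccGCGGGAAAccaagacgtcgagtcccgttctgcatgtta
Brca2: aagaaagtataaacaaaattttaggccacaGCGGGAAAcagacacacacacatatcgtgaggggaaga
Rad51c, inside the transcript: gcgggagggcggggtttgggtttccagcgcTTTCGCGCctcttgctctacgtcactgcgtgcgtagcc
Rad51c, at the other start: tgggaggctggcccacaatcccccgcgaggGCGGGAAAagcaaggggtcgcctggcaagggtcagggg
The Bard1, Fancg, Chek2 and Brca2 matches begin 209, 52, 152 and 168 bases before the start. A match of letters is not a measured binding site.

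Shares were also taken for 3 other motifs. CCAAT, the letters bound by NF-Y, were in 17 of 25 windows (68.0%) against 41.1% of all genes, on either strand. They were in 12 of 16 windows of the S phase list (75%) and 15 of 17 of a G2 and mitosis list (88.2%). Other recombination and Fanconi genes had them in 27 of 51 windows (52.9%). The mismatch repair list had them in 4 of 5 windows (80%) and base excision repair in 10 of 16 (62.5%). End joining had them in 4 of 7 windows, nucleotide excision repair in 7 of 14 and translesion synthesis in 0 of 4. TTTGAA, the core of the cell cycle element CHR that G2 and mitosis genes carry, was in 2 of 25 windows (8%). It was in 20.2% of all genes and in 12 of 17 windows of the G2 and mitosis list (70.6%). The Sox-type letters ACAATGG and ACAAAGG were in 2 of 25 windows (Brca1 and Rad51b, 8%) against 10.5% of all genes. In the Bard1 window the TTTGAA match began 242 bases before the start and did not overlap the E2F match. The whole 300-base window of Xrcc3 (chr12:111813830-111814129, minus strand) is shown as a contrast, since it held 6 CCAAT matches on the 2 strands, in capitals, and its RNA did not pass the test below; 2 of the 6 adjoin each other. It was chosen after its values were seen.
Xrcc3: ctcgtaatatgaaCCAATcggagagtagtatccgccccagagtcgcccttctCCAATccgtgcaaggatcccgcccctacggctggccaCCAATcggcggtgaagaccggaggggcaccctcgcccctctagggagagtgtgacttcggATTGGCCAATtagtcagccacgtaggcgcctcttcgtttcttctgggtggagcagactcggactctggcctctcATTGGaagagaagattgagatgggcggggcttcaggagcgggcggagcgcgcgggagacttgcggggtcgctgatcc

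Of the 33 genes, 24 averaged 1 FPKM or more over the 6 libraries and were tested by limma on log2(FPKM + 1), with p-values adjusted over all 12009 genes above that level. Of these 24, 13 fell with siSox9, 0 rose and 11 did not pass. The background was high: 2118 of 12009 genes fell (17.6%) and 1532 rose (12.8%), and after centring each library on its median the counts were 1765 lower and 1959 higher, with 12 of the 24 genes lower. The median log2 fold change of the 24 was -0.25, beside -0.014 for all tested genes. At an unadjusted p under 0.05, 17 were lower and 0 higher, beside 23.6% and 18.5% of all tested genes (limma).

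The size of these changes was moderate. Over all 33 genes the median level with siSox9 was 72.5% of siNC, and single genes lay between 53.2% (Rad51c) and 104% (Xrcc3). In 30 of the 33 the mean was lower with siSox9, and in 22 of the 33 every siSox9 library was below every siNC library, with 0 the other way round. Among the 24 tested genes that separation held for 15, beside 26.1% of all tested genes. No share over all genes was taken for a lower mean, or for separation in genes under 1 FPKM. With 3 libraries a group, an exact permutation test of a single gene cannot go below p = 0.1, so the calls rest on the limma fit. In a bulk culture, fewer cells of a type and less RNA per cell cannot be told apart.

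**Figure D1:**
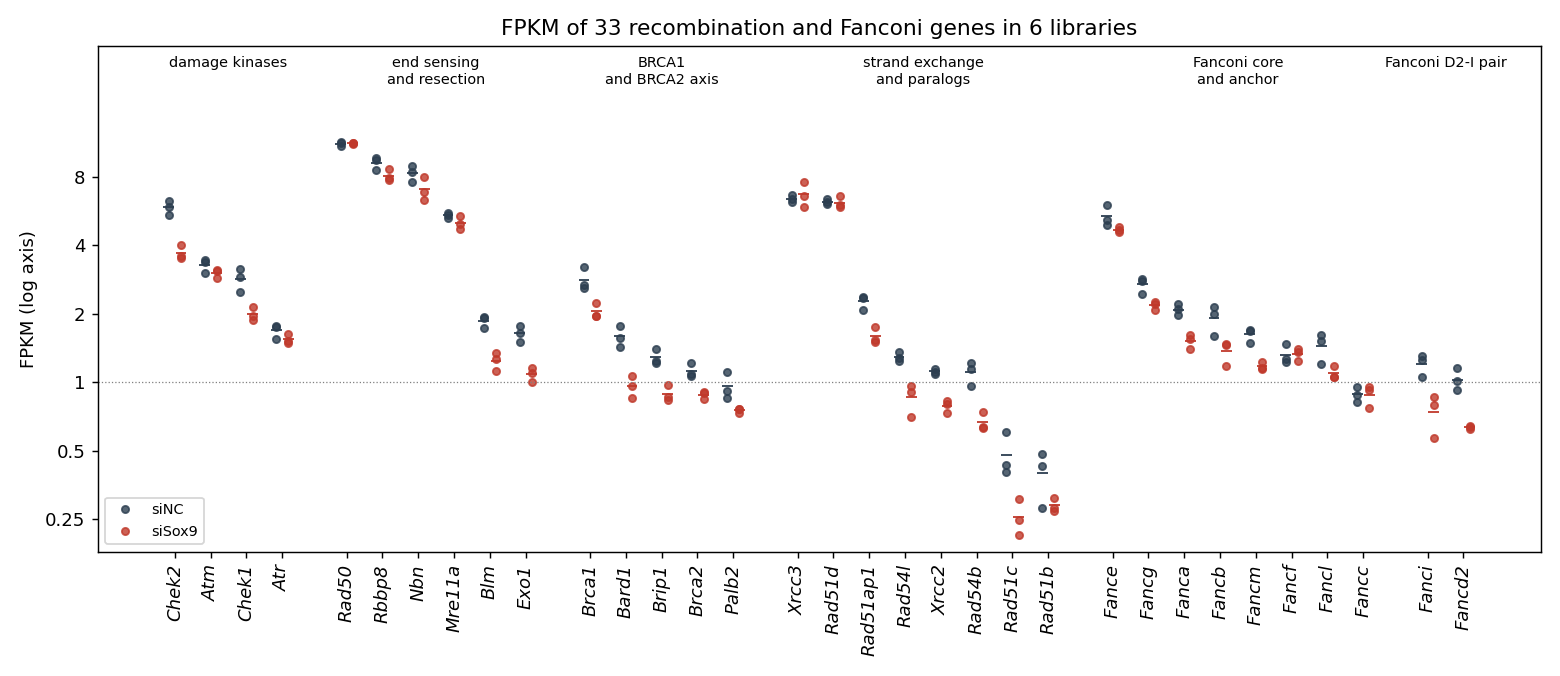
FPKM (log axis) of the 33 genes in 3 siNC libraries (dark) and 3 siSox9 libraries (red), grouped by role and ordered by mean level; points are libraries, short lines are group means and the dotted line is 1 FPKM. The siSox9 points lie below the siNC points without overlap in 22 genes, whereas genes such as Rad50, Xrcc3, Rad51d, Fancf and Fancc overlap. Among the 24 tested genes the separation held for 15, beside 26.1% of all tested genes.

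The remaining 9 genes had means under 1 FPKM (0.342 to 0.9998) and are not covered by that test. The FPKM values could be turned back into whole read counts for 31 of the 33 genes, Rbbp8 and Fance being the exceptions, and limma voom was fitted to those reads with no filter. This fit was chosen after the data were seen. It called 18 of 31 genes lower and 0 higher, beside 8.17% of 25759 genes lower in the whole table, which holds many genes with hardly any reads. Of the 13 genes called lower by limma, 12 were also lower here, Fancg being the exception (adjusted p = 0.072, limma voom), and 6 of the 9 genes under 1 FPKM were lower. In the planned limma fit of log2(FPKM + 1) with no filter, 2 of these 9 were lower, Fancd2 (adjusted p = 0.0426) and Rad54b (0.0454), beside 5.63% of 28122 genes, so the calls of Brca2, Fanci, Rad51c and Xrcc2 rest on the reads alone. Because log2(FPKM + 1) compresses changes of low genes, the percent of the siNC level is also given for many of the 33 genes. That percent is a ratio of group means, except where limma voom is named.

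Among the damage kinases, the 2 checkpoint kinases fell and the 2 apical kinases did not pass. Chek2, which carries the signal of double-strand breaks from Atm, had 3.52, 3.99 and 3.58 FPKM with siSox9 and 5.42, 5.89 and 6.28 FPKM with siNC. It showed the largest drop of the 24 tested genes on this scale, with 63.1% of the siNC level left and a log2 fold change of -0.55 (SE 0.062, adjusted p = 9.67e-04, limma). Every siSox9 library lay below every siNC library by more than 1 FPKM. Chek1, the kinase that acts below Atr at stalled forks, was measured at 1.88, 1.95 and 2.13 FPKM against 2.90, 3.14 and 2.49 FPKM. Again the groups did not overlap, and 69.9% of the siNC level remained (log2 fold change -0.36, SE 0.075, adjusted p = 0.0114, limma).

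Atm lay at 2.85 to 3.12 FPKM with siSox9 and at 3.02 to 3.44 FPKM with siNC, so its groups overlapped. Its log2 fold change was -0.092 with a 95% confidence interval of -0.23 to 0.041 (adjusted p = 0.261, limma). Atr, at 1.48 to 1.62 against 1.55 to 1.77 FPKM, also overlapped (log2 fold change -0.081, interval -0.23 to 0.068). The point values were 91.9% of siNC for Atm and 91.3% for Atr, and a drop as large as that of Chek2 lay outside both intervals.

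The genes of end sensing and resection fell into 2 sets by level. Mre11a, Rad50 and Nbn form the complex that first binds a broken end, and Rbbp8 encodes CtIP, which starts the cut; these were among the 6 highest of the 33 genes, with means over all libraries of 5.21 to 11.2 FPKM. Exo1 and Blm, the nuclease and the helicase of long-range resection, had means of 1.36 and 1.55 FPKM. The first set did not pass the test and the second set fell.

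Blm was measured at 1.35, 1.12 and 1.26 FPKM with siSox9 and at 1.73, 1.92 and 1.93 FPKM with siNC. The groups were clearly apart, with 66.7% left (log2 fold change -0.35, SE 0.068, adjusted p = 0.00836, limma). Exo1 gave 1.09, 0.996 and 1.16 FPKM against 1.77, 1.64 and 1.5003 FPKM. No library of one group reached the other, and 66.2% was left (log2 fold change -0.34, SE 0.070, adjusted p = 0.0111, limma).

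Rad50, the highest of all 33 genes, had nearly equal means in the 2 groups. Its values were 11.3, 11.1 and 11.3 FPKM with siSox9 and 11.4, 11.2 and 10.9 FPKM with siNC, and the log2 fold change of 0.0046 had an interval of -0.070 to 0.079. Its partners had point values below siNC, but their groups overlapped. Mre11a was at 92.7% (log2 fold change -0.092, interval -0.21 to 0.024).

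Nbn, the third subunit, was at 6.31, 6.84 and 7.98 FPKM with siSox9 and at 7.57, 8.91 and 8.34 FPKM with siNC, or 85.1%. The highest siSox9 library was above the lowest siNC library, and the adjusted p was 0.107 (limma). Without siSox9 replicate 3 that p became 0.0338, and in limma voom on genes above 1 FPKM it was 0.0468. Rbbp8 stood at 7.71, 7.89 and 8.60 FPKM against 8.56, 9.46 and 9.64 FPKM, and was close to the threshold (log2 fold change -0.17, adjusted p = 0.0575, limma). It passed without siSox9 replicate 3 (adjusted p = 0.0413) and without siNC replicate 1 (adjusted p = 0.0225), and also with a minimum of 5 FPKM (0.0451).

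All 3 tested genes of the BRCA1 and BRCA2 axis fell, and the other 2, Brca2 and Palb2, were under 1 FPKM. Brca1, the ubiquitin ligase and scaffold that favours recombination over end joining, had 1.96, 2.22 and 1.95 FPKM with siSox9 and 3.20, 2.67 and 2.59 FPKM with siNC. The lowest siNC library was above the highest siSox9 library, 72.5% of the level was left and the log2 fold change was -0.33 (SE 0.076, adjusted p = 0.0174, limma). Bard1, its obligate partner in the ligase, had 0.852, 0.960 and 1.07 FPKM against 1.42, 1.77 and 1.56 FPKM. With 60.5% left, it had the largest drop of the axis on either scale (log2 fold change -0.40, SE 0.080, adjusted p = 0.00975, limma). Brip1, the helicase that binds Brca1 and is also the Fanconi gene FANCJ, gave 0.834, 0.967 and 0.859 FPKM against 1.22, 1.23 and 1.40 FPKM, which is 69.0% (log2 fold change -0.28, adjusted p = 0.0267, limma).

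Brca2, a mediator of strand exchange, had a mean of 0.9998 FPKM and so missed the minimum by a narrow margin. Its values were 0.846, 0.892 and 0.902 FPKM with siSox9 and 1.22, 1.08 and 1.06 FPKM with siNC, from 294 to 412 reads a library. The groups did not overlap, and limma voom gave 78.7% of the siNC level (95% interval 68.9 to 89.9%, adjusted p = 0.013). In limma on log2(FPKM + 1) with no filter its adjusted p was 0.182. Palb2, the bridge between Brca1 and Brca2, was at 0.762, 0.735 and 0.758 FPKM against 1.10, 0.914 and 0.855 FPKM. It did not pass in limma voom (79.0%, interval 65.2 to 95.8%, adjusted p = 0.107), although the groups were again apart.

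The genes of strand exchange divided most widely, with 53.2% to 104% of the siNC level left. Rad51ap1, which stimulates strand invasion, was measured at 1.49, 1.53 and 1.74 FPKM with siSox9 and at 2.08, 2.35 and 2.37 FPKM with siNC. That was 69.98% of siNC with no overlap (log2 fold change -0.34, SE 0.067, adjusted p = 0.00938, limma). Rad54l, the motor protein that remodels DNA during strand exchange, had 0.908, 0.700 and 0.961 FPKM against 1.24, 1.27 and 1.35 FPKM. It fell to 66.5% (log2 fold change -0.30, SE 0.080, adjusted p = 0.0272, limma), and 15.4% of its exon bases are shared with Lrrc41 on the opposite strand, so its value is less certain.

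Its relative Rad54b was under 1 FPKM, at 0.740, 0.633 and 0.630 FPKM with siSox9 and 0.961, 1.15 and 1.21 FPKM with siNC. In limma voom 60.7% was left (interval 48.9 to 75.3%, adjusted p = 0.0016), but 35.8% of its exon bases belong also to Fsbp on the same strand, and the reads of the pair cannot be told apart there.

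The paralogs Rad51b, Rad51c, Rad51d, Xrcc2 and Xrcc3, accessory factors of strand exchange, did not move as 1 group. Xrcc2 was lower in every library, at 0.730, 0.8003 and 0.826 FPKM against 1.09, 1.14 and 1.11 FPKM (limma voom 70.5%, interval 57.6 to 86.2%, adjusted p = 0.0169). Rad51c had few reads, 24, 34 and 26 against 47, 64 and 44, and the lowest remaining level of the 33 genes (limma voom 54.0%, interval 37.0 to 78.8%, adjusted p = 0.0248). In limma with no filter neither passed (adjusted p = 0.0623 for Xrcc2 and 0.0903 for Rad51c). Rad51b, with 25 to 44 reads a library and the lowest mean of the 33 genes, overlapped between the groups and did not pass (limma voom interval 49.8 to 111.8%).

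Rad51d and Xrcc3, the 2 paralogs with the highest levels, stayed near siNC in their means. Rad51d gave 6.57, 5.99 and 5.87 FPKM with siSox9 and 6.08, 6.39 and 6.16 FPKM with siNC (log2 fold change -0.015, interval -0.13 to 0.098). The sign of that value turned in 6 of the 16 alternatives, so it has no direction. Xrcc3 gave 7.58, 6.54 and 5.91 FPKM against 6.62, 6.35 and 6.19 FPKM, and the siSox9 libraries spread on both sides of siNC (log2 fold change 0.050, interval -0.13 to 0.23, and -0.033 without siSox9 replicate 1).

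Of the 8 genes of the Fanconi core complex and its anchor, which place ubiquitin on Fancd2 and Fanci, 7 were tested and 4 fell. Fanca had 1.61, 1.54 and 1.39 FPKM with siSox9 and 2.19, 1.96 and 2.09 FPKM with siNC. The groups were apart, with 72.9% left (log2 fold change -0.29, SE 0.063, adjusted p = 0.0128, limma), and 10.5% of its exon bases overlap Zfp276 on the opposite strand. Fancm, the translocase that anchors the core complex to DNA, had 1.15, 1.22 and 1.15 FPKM against 1.68, 1.49 and 1.69 FPKM. It was left at 72.4% (log2 fold change -0.27, SE 0.065, adjusted p = 0.0191, limma).

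Fancg, an adaptor of the core complex, was at 2.202, 2.24 and 2.07 FPKM against 2.79, 2.83 and 2.45 FPKM. It had the smallest drop among the 13 called genes in percent, with 80.8% left (log2 fold change -0.22, adjusted p = 0.0329, limma). Fancb, the X-linked core subunit, gave 1.17, 1.45 and 1.47 FPKM with siSox9 and 1.59, 2.14 and 1.9965 FPKM with siNC. Its groups did not overlap, but the wide spread of both put it at the edge of the threshold (71.6% left, log2 fold change -0.30, adjusted p = 0.049971, limma).

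Fancl, the ubiquitin ligase of the complex, had a similar remaining level of 75.6% and did not pass (1.05 to 1.18 against 1.21 to 1.61 FPKM, log2 fold change -0.22, adjusted p = 0.0864, limma); 13.7% of its exon bases overlap Vrk2. Without siNC replicate 1 its adjusted p was 0.0318. Fance, which links the core to Fancd2, lay at 4.54 to 4.80 against 4.90 to 6.02 FPKM (87.0%, adjusted p = 0.111, limma, and 0.0489 without siNC replicate 1).

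The other 2 core genes showed overlapping groups and means close to each other. Fancf, an adaptor, was at 1.24 to 1.40 with siSox9 and 1.22 to 1.48 FPKM with siNC (log2 fold change 0.0068, interval -0.16 to 0.18). Fancc was at 0.766 to 0.952 and 0.819 to 0.953 FPKM (limma voom 99.4%, interval 83.1 to 119%). Both share exon bases with a gene on the opposite strand, 14.96% with Gas2 and 16.4% with Gm16133.

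Fancd2 and Fanci, the clamp that receives the ubiquitin, were both under 1 FPKM. Both were lower in limma voom, and in limma with no filter Fancd2 passed (adjusted p = 0.0426) and Fanci did not (0.0847). Fancd2 gave 0.622, 0.640 and 0.633 FPKM with siSox9 and 0.918, 1.01 and 1.15 FPKM with siNC. Its siSox9 libraries were almost equal and all below siNC (limma voom 61.9%, interval 51.2 to 74.8%, adjusted p = 6.47e-04). Fanci gave 0.862, 0.566 and 0.790 FPKM against 1.26, 1.30 and 1.05 FPKM, a wider spread but again with no overlap (limma voom 60.9%, interval 48.5 to 76.5%, adjusted p = 0.00284). Polg on the opposite strand covers 15.95% of the Fanci exon bases.

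**Figure D2:**
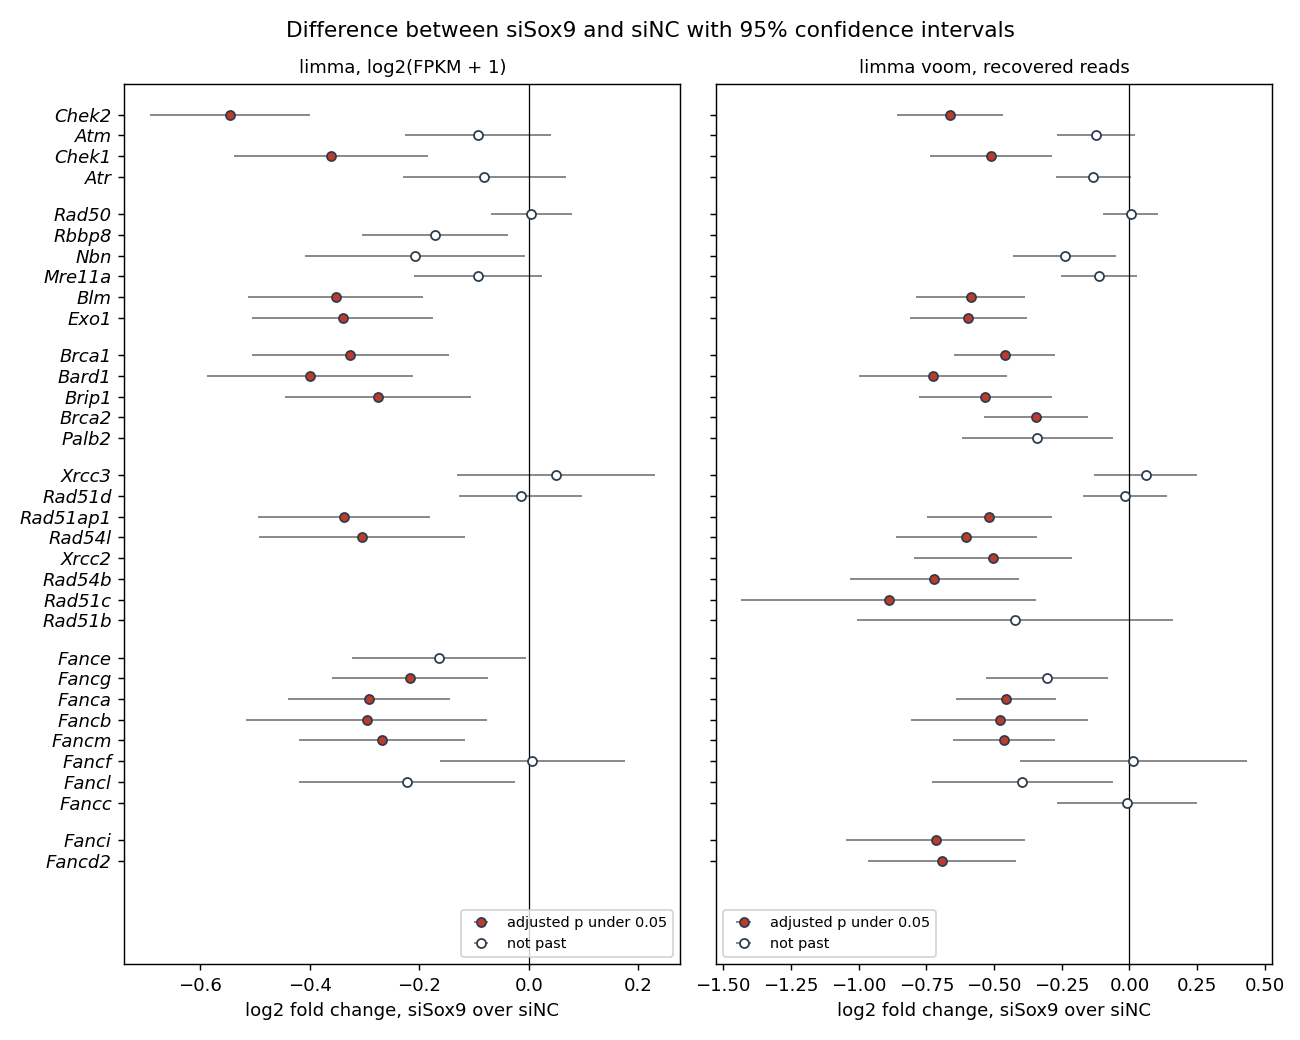
Log2 fold change of siSox9 over siNC with 95% confidence intervals, for 24 genes by limma on log2(FPKM + 1) (left) and for 31 genes by limma voom on recovered reads with no filter (right, wider axis); filled points have an adjusted p under 0.05. No filled point lies right of 0, with 13 filled on the left panel and 18 on the right.

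The calls differed in how firmly they held. Chek1, Chek2, Bard1, Blm, Exo1, Rad51ap1 and Fanca were called lower in each of the 15 alternatives that tested them. Of these, Fanca is less certain, as it shares 10.5% of its exon bases with Zfp276. Brca1 lost its call without siSox9 replicate 1 (adjusted p = 0.0578) or 3 (0.0556), and Fancm without siSox9 replicate 1 (0.0587) or 3 (0.054) or siNC replicate 1 (0.0521) or 3 (0.0666). Rad54l lost it without siSox9 replicate 1 (0.0567) or 2 (0.0801) or siNC replicate 2 (0.0677) or 3 (0.0856). Brip1 lost it without siSox9 replicate 1 (0.0803), 2 (0.0504) or 3 (0.0708) or siNC replicate 2 (0.0571) or 3 (0.0899).

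Fancg and Fancb were the least firm. Fancg lost its call without siSox9 replicate 1 (0.0756), 2 (0.0699) or 3 (0.091) or siNC replicate 1 (0.0817) or 2 (0.0963), and Fancb without siSox9 replicate 1 (0.139), 2 (0.0898) or 3 (0.0762) or siNC replicate 2 (0.139) or 3 (0.134). Their directions did not change. Other settings ended some of these calls as well. With no filter on low genes Brca1, Rad54l, Fancb, Fancg, Fancm and Brip1 missed the threshold, on TPM all of these but Brca1 did, and after quantile normalization Rad54l, Fancb, Fancg and Brip1 did. Without moderation of the variance Brca1, Fancb and Fancg were lost, and Fancb was also lost with a pseudocount of 0.1 (adjusted p = 0.0517, limma) and after median centring (0.0703). Without siSox9 replicate 1 the number of genes called lower was 7. It was 14 without siNC replicate 1, and 9 or 10 without any 1 of the other libraries.

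The split by level ran across the roles. Of the 16 genes with means from 1 to under 4 FPKM, 12 fell, and their median level was 72.0% of siNC. Of the 8 genes at 4 FPKM and over, Chek2 alone fell, and the median was 90.1%. Over all tested genes the shares that fell in these 2 level classes were 16.9% and 18.0%. The limit of 4 FPKM was chosen after the values were seen, and the difference between the classes was not tested. Genes above that level included Rad50, Nbn, Mre11a, Rbbp8, Rad51d, Xrcc3 and Fance.

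**Figure D3:**
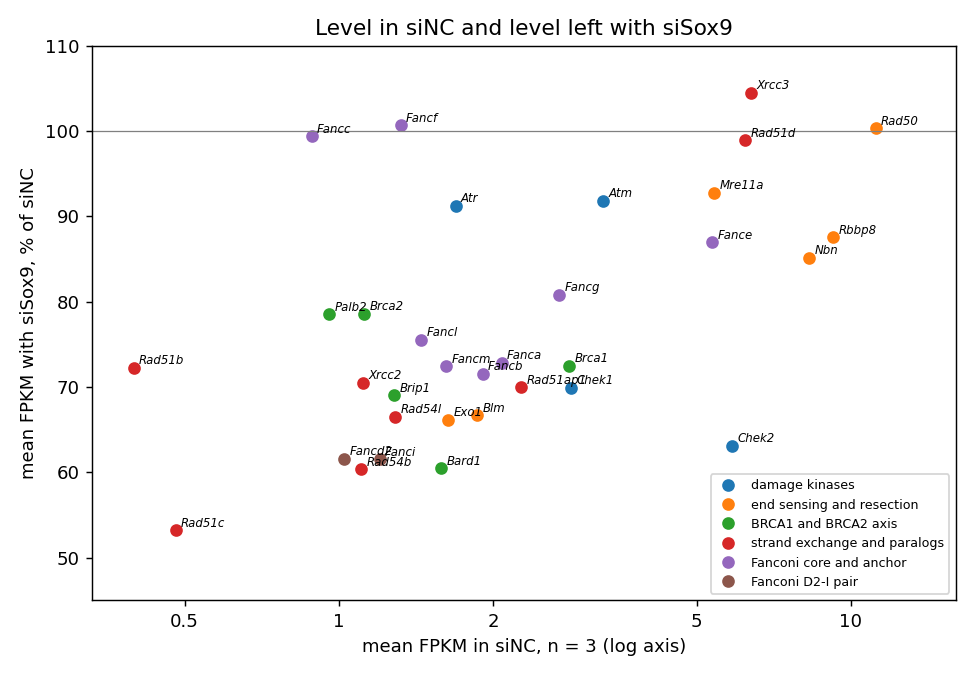
Mean FPKM in siNC (log axis, n = 3) and mean FPKM with siSox9 as percent of siNC for each of the 33 genes, coloured by role; the horizontal line is 100%. Most genes under 4 FPKM lie between 53.2% and 80.8%, with Atm, Atr, Fancf and Fancc above, and of the genes over 4 FPKM Chek2 lies lowest, at 63.1%.

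As no gene was called higher, the promoter letters shown above could not be set against the direction of change. Called genes were found both with and without the letters, and the difference in shares was not tested. All 3 tested genes with an E2F match fell in limma (Bard1, Fancg and Chek2), and so did 9 of 16 tested genes with a window but no match, among them Blm, Chek1 and Fanca. In limma voom with no filter, 4 of the 5 genes with a match were lower, Fancg not passing. Of 14 tested genes with a CCAAT match 9 fell, and of 5 without it 3 fell.

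A wider list of 63 other genes of recombination and the Fanconi pathway, with 57 tested, also held more genes that fell than genes that rose: 22 fell and 4 rose, with a median log2 fold change of -0.11. Among the lowest was Usp1, the protease that takes the ubiquitin off Fancd2, at 9.43 to 9.92 FPKM with siSox9 against 13.7 to 14.5 FPKM with siNC (log2 fold change -0.49, adjusted p = 1.98e-04, limma). The highest were Rad17, the clamp loader of the Atr checkpoint (log2 fold change 0.25, adjusted p = 0.0127, limma), and Babam2, of a Brca1 complex that edits ubiquitin (0.23, adjusted p = 0.0317, limma).

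The 5 other repair lists, for end joining, mismatch, base excision, nucleotide excision repair and translesion synthesis, together held 55 tested genes. Of these 10 fell (18.2%) and 6 rose, near the background of all genes. Over all 60 listed genes of the 5 lists, tested or not, the median level was 101% of siNC. In end joining 1 of 9 genes fell, Xrcc6 (log2 fold change -0.71, adjusted p = 2.38e-04, limma), which encodes Ku70. In mismatch repair 1 of 6 fell, Msh6 (log2 fold change -0.30, adjusted p = 6.76e-04, limma). In base excision repair 4 of 16 fell, led by the uracil glycosylase Ung (-0.32) and Parp2 (-0.31), and 1 rose, the glycosylase Tdg (0.21).

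Nucleotide excision repair had 1 of 18 genes lower, Rad23b (-0.089), and 5 higher, led by Gtf2h3 (0.45) and the damage sensor Xpc (0.26). In translesion synthesis 3 of 6 fell, with Rad18 (-0.30) and the polymerase gene Polh (-0.18) the lowest. No test of the difference between these lists and the 33 genes was made.

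Cell cycle genes moved with these changes. In an S phase list 19 of 20 tested genes fell and 0 rose (median log2 fold change -0.37, median level 74.1% of siNC), led by the ribonucleotide reductase genes Rrm2 (-1.09) and Rrm1 (-0.82). In a G2 and mitosis list 20 of 20 fell, with a median of -0.64 and 58.9% of the siNC level, led by Cdc20 (-0.86) and Plk1 (-0.82). The clamp gene Pcna was at 39.8 to 44.2 FPKM with siSox9 and 50.8 to 55.1 FPKM with siNC (-0.35, adjusted p = 0.00243, limma), and the proliferation marker Mki67 at 6.61 to 7.06 against 12.0 to 12.9 FPKM (-0.78, adjusted p = 8.27e-05, limma). The summed FPKM of the S phase list was 207 to 221 with siSox9 and 299 to 309 with siNC, and that of the G2 and mitosis list 105 to 111 and 180 to 189. The part of the cell cycle genes in the result for the 33 genes was not tested.

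Markers of other cell types also differed between the groups. The smooth muscle gene Cnn1 was lower (log2 fold change -1.22, 1 of 4 tested genes of its list), both tested podocyte-list genes, Podxl (-0.57) and Synpo (-0.33), were lower while the podocyte-defining Nphs1 was at 0 in every library, and the epithelial Cdh16 was higher (0.36, 1 of 8 tested). The summed smooth muscle markers ran from 680 to 733 FPKM with siSox9 and from 762 to 804 FPKM with siNC, without overlap. The summed leukocyte markers ran from 88.7 to 100.4 FPKM with siSox9 and from 96.7 to 106.8 FPKM with siNC. The part of these cell type markers in the result was not tested.

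**Figure D4:**
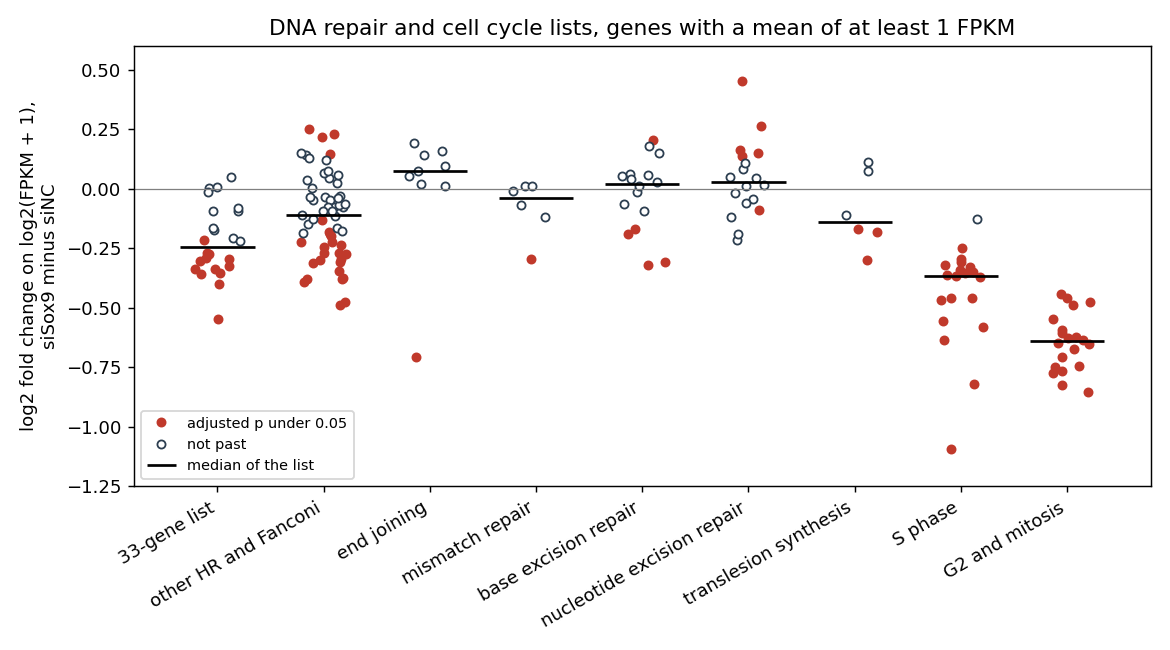
Log2 fold change of siSox9 minus siNC on log2(FPKM + 1) for each tested gene of the 33-gene list, of 6 other DNA repair lists and of 2 cell cycle lists; filled points have an adjusted p under 0.05 (limma) and bars are medians. The median of the 33-gene list (-0.25) lies between those of the other recombination genes (-0.11) and of the S phase list (-0.37), and that of the G2 and mitosis list is the lowest of the 9 (-0.64). This scale compresses changes of low genes, and the order of the 33-gene and S phase lists depends on it. In limma voom with no filter their medians were -0.46 and -0.40, and their median levels were 72.5% and 74.1% of siNC.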

How the data were processed

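RNA of 6 libraries was sequenced on an Illumina instrument, and the authors deposited 1 table of FPKM per gene, with gene annotation and no comparison columns. The submitters' processing notes name HISAT2 2.1.0, Bowtie2 2.2.3, TopHat2 and the build mm9, whereas 93.4% of the genes lie at their GRCm38 position (GENCODE M21); whether counting used strand is not given in the sources used here. The siSox9 columns name the siRNA by a number and were assigned by elimination, siSox9 being the only siRNA in the labels besides siNC; 0 other sample columns were present. FPKM times exon length gave whole reads (within 0.02 reads) for 27948 of 30315 genes. Genes with no reads in any library pass this check in advance. Some FPKM was present for 28122 genes, and limma voom with no filter, which also needs whole reads, held 25759.

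limma 3.58.1 (R 4.3.3, empirical Bayes with trend) was fitted to log2(FPKM + 1) of genes averaging 1 FPKM or more, 3 siSox9 against 3 siNC libraries, with Benjamini-Hochberg adjustment over all 12009 and a threshold of 0.05; fold changes are on that scale and understate low genes. No duplicate library was seen: pairs of one group differed by more than sampling noise (mean chi-square 1.94 to 7.49). Of a gene with 1 kb of exons, 1 read was worth 0.0389 to 0.0419 FPKM. Scripts were tested on simulated data. The alternatives were other pseudocounts, filters, scalings (TPM, median, quantile), a replicate block, no moderation, each library left out and limma voom on recovered reads; voom with no filter was added after the data were seen. Named were all 33 genes, Sox9, Mki67, Pcna, of each other list the 2 lowest and 2 highest called genes, and members whose call changed; cell type markers and a few genes given as examples were named besides. A gene that this rule names is not reported here. The members and lists were chosen with earlier results of these data known. The 7 genes that share over 10% of their exon bases with another gene are less certain: Rad54l, Rad54b, Fanca, Fancc, Fancf, Fanci and Fancl.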

Additional observations from a re-analysis of the deposited data

How the results depend on the processing

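The 33-gene result kept its direction in all 16 alternatives, with 0 genes higher, while the number called lower varied. It was 13 as reported, 1 with a minimum of 5 FPKM, which leaves 7 of the 33 genes in the test (Rbbp8 lower), 8 on TPM, 7 to 14 with 1 library left out, 12 with a replicate block, 14 in limma voom and 18 in limma voom with no filter. Their median log2 fold change of -0.25 became -0.40 with a pseudocount of 0.1, -0.092 with a minimum of 5 FPKM, -0.33 on TPM, -0.22 after median centring, -0.20 after quantile normalization, -0.46 in limma voom with or without a filter, and -0.26 to -0.22 with 1 library left out. Over all genes, 1376 fell with a minimum of 5 FPKM and 1332 on TPM, and 944 to 1565 rose with 1 library left out (944 without siSox9 replicate 2). Of the other recombination genes, 11 fell with no filter, 9 with a minimum of 5 FPKM (1 rose), 14 on TPM and 14 to 19 with 1 library left out (14 without siSox9 replicate 1, siSox9 replicate 2 or siNC replicate 3). Of the 5 other repair lists, 6 fell with no filter, 4 on TPM, 6 with the replicate block and 5 to 9 with 1 library left out (5 without siSox9 replicate 2 and 6 without siSox9 replicate 1). Among genes near 0, Rad51d was 0.012 on TPM, 0.012 after median centring, 0.016 after quantile normalization and, with 1 library left out, ran from -0.057 to 0.013, Fancf from -0.023 to 0.055, Xrcc3 from -0.033 to 0.12 and Rad50 from -0.0092 to 0.016. The cause of these shifts was not tested, and the 5 FPKM minimum also left fewer genes in the fit. The replicate numbers do not pair the samples: same-numbered libraries had deviations that correlated at 0.065, -0.050 and 0.0078. With the block, 1889 genes fell and 1373 rose, Brip1 (adjusted p = 0.0605) and Fancm (0.0523) were no longer called and Rbbp8 was (0.032, limma). Depth limits Rad51b and Rad51c most, at 24 to 64 reads a library.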
